A study of Mus musculus with 4 samples.

Results

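Cell cycle and DNA replication genes were examined in eye tissue of control mice and of transgenic mice whose aqueous humor contained myocilin, a glycoprotein that cells secrete. The genes were taken from a list of 36 symbols, of which 10 act in DNA replication and 26 in mitosis. A gene counted as measured where the platform annotation gave a probe set that symbol and no other. This held for 35 of the 36, all but Ccnb1, among the 18193 genes named in this way on the array, and they were represented by 85 of its 45101 probe sets. The data are 4 one-colour Affymetrix arrays labelled retina, 2 from controls and 2 from transgenic animals. The question stated by the labels is how the retina responds to a high concentration of myocilin around it. The labels describe the second control array as a technical replicate of the first, so both were averaged into 1 control sample. The p-values and standard errors thus rest only on the spread between the 2 transgenic arrays, pooled across probe sets. They do not measure the spread between the control arrays. The promoter that drove the transgene, the strain and the age of the animals, and whether the transgenic arrays came from separate animals, are not given in the sources used here.

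No cell cycle gene passed the test for a difference between transgenic and control tissue, but the medians of replication and mitosis genes stood on opposite sides of 0. Mitosis genes were mostly a little higher in the transgenic arrays, with a median log2 difference of 0.21 over the 25 tested, and 19 of the 25 were above 0. Replication genes were mostly a little lower, with a median of −0.10 over 9 tested. Of the 9, 6 were below 0, against 51.9% of all genes. Pcna, the sliding clamp of the replication fork, had the highest value of the replication genes at 0.30 ± 0.10 (log2, SE), and Rrm1 was also above 0. Over all 12722 genes tested the median was −0.01, and 48.1% were above 0. The median for replication genes was 0.31 below that for mitosis genes, a description for which no test was made. A wider list of 35 other tested replication genes had a median of 0.02.

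A cell copies its DNA in S phase and divides the copies in mitosis, and the genes for each step are transcribed in separate waves. Replication genes peak around the start of S phase under the control of E2F factors. Most mitosis genes peak in G2 and mitosis under the control of the MuvB complex together with B-Myb and FoxM1, which act at the cell cycle homology region (CHR) of their promoters, often beside CCAAT boxes bound by NF-Y. In the adult eye, neurons of the retina no longer divide, whereas the basal layer of the corneal epithelium renews itself throughout life.

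The promoters of the 2 groups differed in how often they held CHR and E2F elements, a feature that the choice of genes did not use and that is described here without a test. RefSeq promoter sequences of 300 bases, from 250 before to 50 after an annotated start of transcription (build GRCm38.p6), were at hand for 31 of the 36 genes. Mcm4, Ccna2, Aurkb, Tpx2 and Kif20a had no entry. Each was searched on both strands for the CCAAT box (CCAAT), for CHR letters (TTTGAA or TTTAAA) and for E2F letters (TTTCCCGC, TTTCGCGC, TTTGCCGC or TTTGGCGC), and an E2F match on one strand can overlap one on the other. CHR letters occurred in 18 of 22 mitosis genes (81.8%) and in 3 of 9 replication genes (33.3%), against 30.6% of all 27025 genes with a promoter in the table. E2F letters occurred in 4 of 9 replication genes (44.4%), namely Mcm3, Mcm5, Mcm6 and Mcm7, and in 0 of 22 mitosis genes, against 2.60% of all genes. The CCAAT box was common to both, in 8 of 9 replication and 19 of 22 mitosis genes, against 41.1% of all genes. Among cell cycle genes outside the list of 36, CHR letters occurred in 29 of 41 mitosis (70.7%) and 7 of 29 replication genes (24.1%). E2F letters occurred there in 11 of 29 replication genes (37.9%), but also in 5 of 41 mitosis genes (12.2%). In a window of 50 bases on either side of the start, chosen after the positions were seen, CHR letters lay in 16 of 22 mitosis genes (72.7%) and in 9.54% of all genes. A match is a stretch of letters and was not tested as a binding site.

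**Figure D1:**
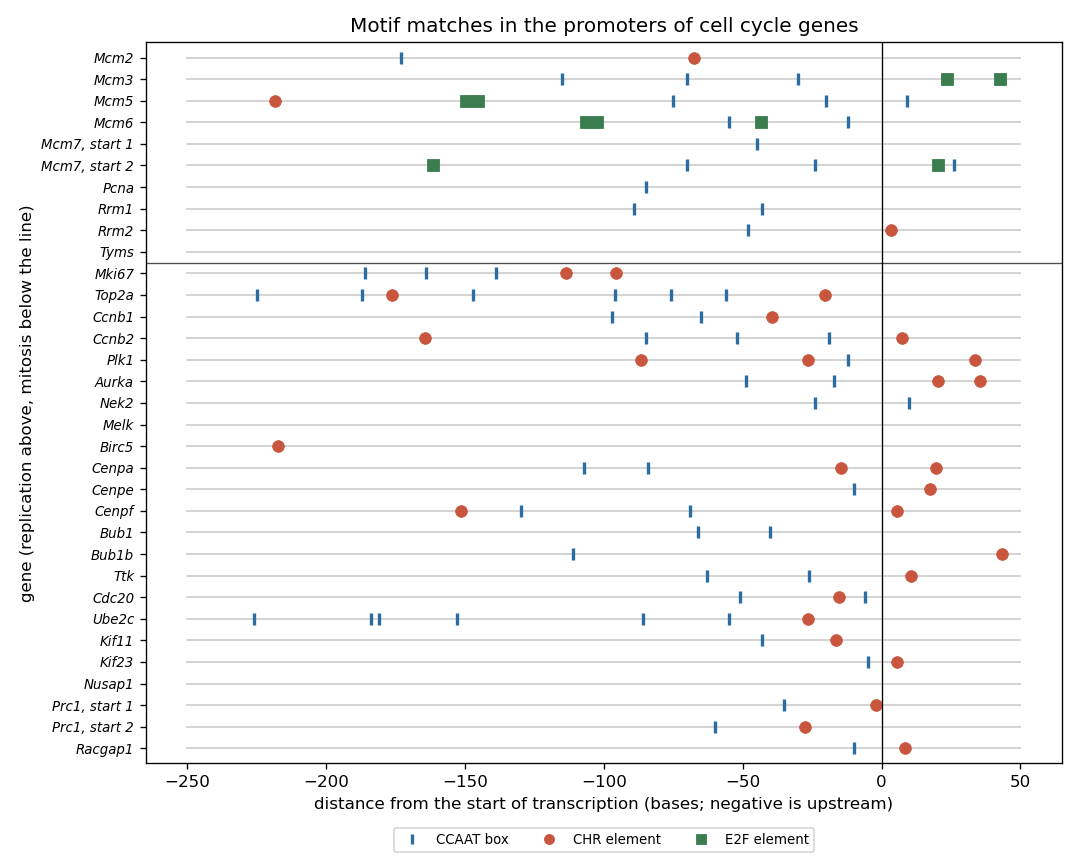
Positions of CCAAT boxes (bars), CHR letters (circles) and E2F letters (squares) along each RefSeq promoter, by distance in bases from the start of transcription. Squares appear in 4 replication genes and in no mitosis gene, and circles gather near the start in the mitosis genes.

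The 200 bases before the start are shown for 3 helicase genes with E2F letters and 4 mitosis genes with CHR letters in that stretch. Capitals mark every CCAAT, CHR and E2F match, and each sequence is given on the strand of its gene from 5′ to 3′. Mcm5 lies on the plus strand at chr8:75109309-75109508, Mcm6 on the minus strand at chr1:128359706-128359905 and Mcm7 on the minus strand at chr5:138171884-138172083. Cdc20 lies on the minus strand at chr4:118437344-118437543, Kif11 on the plus strand at chr19:37376182-37376381, Cenpa on the plus strand at chr5:30666686-30666885 and Plk1 on the plus strand at chr7:122159235-122159434.
Mcm5: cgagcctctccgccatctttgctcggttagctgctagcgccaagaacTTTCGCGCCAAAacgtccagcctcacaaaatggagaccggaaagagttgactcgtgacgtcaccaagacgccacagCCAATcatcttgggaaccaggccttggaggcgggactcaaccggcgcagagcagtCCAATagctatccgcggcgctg
Mcm6: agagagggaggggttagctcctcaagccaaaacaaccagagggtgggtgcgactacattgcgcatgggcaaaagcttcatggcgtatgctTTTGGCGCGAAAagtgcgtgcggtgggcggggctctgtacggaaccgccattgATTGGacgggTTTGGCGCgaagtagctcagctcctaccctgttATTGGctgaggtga
Mcm7: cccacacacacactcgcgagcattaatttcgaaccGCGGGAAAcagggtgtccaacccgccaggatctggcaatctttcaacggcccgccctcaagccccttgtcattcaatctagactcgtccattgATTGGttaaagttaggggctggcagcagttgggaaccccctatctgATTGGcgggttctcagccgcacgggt
Cdc20: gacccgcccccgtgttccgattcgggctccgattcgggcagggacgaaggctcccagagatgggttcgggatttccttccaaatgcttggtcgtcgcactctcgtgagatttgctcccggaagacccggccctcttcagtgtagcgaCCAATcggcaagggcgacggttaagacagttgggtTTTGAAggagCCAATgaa
Kif11: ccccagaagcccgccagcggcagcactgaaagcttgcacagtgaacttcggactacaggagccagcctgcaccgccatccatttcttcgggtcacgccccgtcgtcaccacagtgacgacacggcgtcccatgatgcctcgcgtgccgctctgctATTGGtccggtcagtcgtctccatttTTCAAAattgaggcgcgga
Cenpa: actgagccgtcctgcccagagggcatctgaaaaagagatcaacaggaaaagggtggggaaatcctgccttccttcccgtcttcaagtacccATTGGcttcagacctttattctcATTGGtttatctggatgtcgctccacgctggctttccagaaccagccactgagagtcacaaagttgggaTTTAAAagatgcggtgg
Plk1: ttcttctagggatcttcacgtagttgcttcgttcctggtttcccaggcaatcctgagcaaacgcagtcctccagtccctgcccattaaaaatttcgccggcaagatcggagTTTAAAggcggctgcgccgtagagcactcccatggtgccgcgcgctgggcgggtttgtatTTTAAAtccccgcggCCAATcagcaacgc

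In the helicase promoters of Mcm5 and Mcm6, E2F letters form an overlapping pair, one copy on each strand, and Mcm6 has a further copy nearer the start. In Cdc20, Kif11 and Cenpa the CHR letters lie within the last 20 bases before the start, with a CCAAT box further upstream. The tested genes with E2F letters stood at −0.16 for Mcm3, 0.00 for Mcm5, −0.13 for Mcm6 and −0.08 for Mcm7 (log2 difference). Tested genes with CHR letters had a median log2 difference of 0.15 (n = 20), and those without had one of 0.02 (n = 9), ranges that overlap from −0.16 to 0.30. Most genes with CHR letters were mitosis genes, so this split largely repeats that of the 2 groups, and it was not tested. For the CCAAT box the medians were 0.08 with it (n = 26) and 0.27 without (n = 3).

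Signals of the 2 proliferation markers were similar in control and transgenic arrays. Mki67, which encodes the nuclear antigen Ki-67 of cycling cells, had signals of 372 and 348 in controls and 410 and 368 in transgenic arrays. Top2a, the topoisomerase that untangles sister chromatids, had signals of 356 and 361 in controls and 303 and 354 in transgenic arrays. The Mki67 arrays of the 2 groups overlapped, while both transgenic values of Top2a lay below both control values, array 2 only just. Their log2 differences were 0.11 ± 0.15 and −0.12 ± 0.15 (SE; limma adjusted p = 0.952 and 0.944). The array's trimmed mean signal was 150 on every array, and the brightest probe set of each gene exceeded it on all 4. A second, dimmer tested probe set of Top2a had signals of 115.5 and 80.5 in controls and 77.3 and 87.9 in transgenic arrays. These overlapped, with a log2 difference of −0.19 ± 0.24. In whole tissue, fewer cycling cells and less RNA per cycling cell cannot be told apart.

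**Figure D2:**
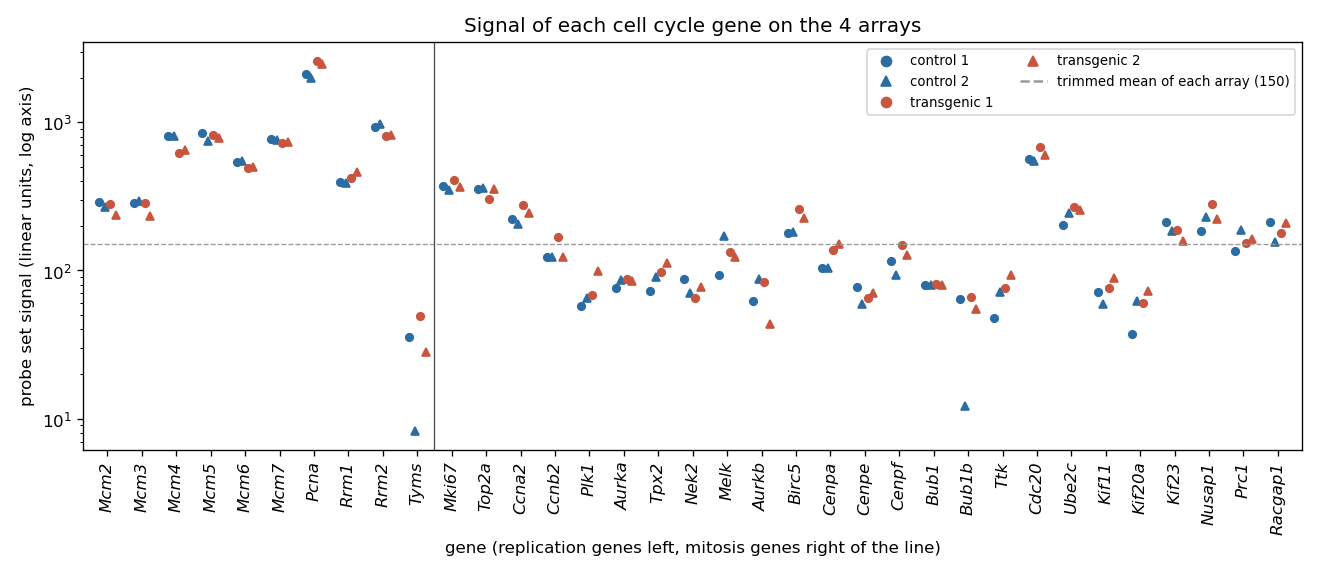
Signal of the brightest probe set of each of the 35 genes on the 2 control and 2 transgenic arrays (log axis), with the trimmed mean of 150 dashed. Pcna is higher and Mcm4 and Rrm2 are lower on both transgenic arrays, and control 2 lies far below the other arrays for Bub1b and Tyms.

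Log2 differences were taken on log2(signal + 16), which understates the change of dim genes, and each gene was represented by its brightest probe set. Of the 34 genes tested, 0 passed the threshold of 0.05 on the limma adjusted p, against 16 of 12722 genes (0.126%), and 1 of the 35, Tyms, was too dim to be tested. At an unadjusted p under 0.05 there were 3, namely Pcna and Birc5 on the higher and Mcm4 on the lower side, against 4.65% of all genes on the higher and 3.41% on the lower side. Both transgenic arrays lay above both control arrays for 11 of 25 mitosis and 2 of 9 replication genes, where all genes gave 22.8%. Both lay below for 1 mitosis and 4 replication genes, where all genes gave 24.0%. When the probe sets of a gene were averaged, 6 mitosis genes were higher on both transgenic arrays.

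Among the replication genes, the MCM helicase subunits were at or slightly below control. Mcm2 to Mcm7 form the ring that unwinds DNA at the fork, and 5 of the 6 had log2 differences below 0, with a median of −0.12. Mcm4 had signals of 804 and 808 in controls and 618 and 652 in transgenic arrays. Both transgenic values lay below both control values by far more than the control arrays differed, and the log2 difference was −0.34 ± 0.12 (SE; unadjusted p = 0.0177, adjusted p = 0.581 in limma). Mcm6 had signals of 537 and 548 in controls and 490 and 499 in transgenic arrays, a difference of −0.13 ± 0.13. Mcm7 had signals of 777 and 763 in controls and 721 and 733 in transgenic arrays, a difference of −0.08 ± 0.12. These 2 were lower on both transgenic arrays, but by no more than about their standard errors. Mcm2 at −0.10, Mcm3 at −0.16 and Mcm5 at 0.00 overlapped between the groups.

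Other probe sets of the same helicase genes gave differing values. For Mcm2 a second probe set had signals of 255 and 253 in controls and 185 and 187 in transgenic arrays, a log2 difference of −0.42 ± 0.17 (unadjusted p = 0.0305, adjusted p = 0.648 in limma), against −0.10 on the brightest. The 5 tested probe sets of Mcm3 ran from −0.16 to 0.38 and differed in sign. The second probe set of Mcm4 stood at −0.19 ± 0.15, below 0 like the first. The second probe set of Mcm5 stood at 0.12 ± 0.17 and was higher on both transgenic arrays. Those of Mcm6 stood at −0.13 and −0.12, and the 4 of Mcm7 between −0.15 and −0.01. Over all 23 tested probe sets of replication genes the median was −0.08, and 14 were below 0.

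The clamp and the enzymes of nucleotide supply did not share one direction. Pcna, which tethers the polymerases to DNA and has 1 probe set, had signals of 2129 and 1979 in controls and 2594 and 2468 in transgenic arrays. Both transgenic arrays were higher by more than either pair differed within itself, with an unadjusted p of 0.0120 and an adjusted p of 0.531 in limma. Rrm1 and Rrm2 encode the large and small subunits of ribonucleotide reductase, the enzyme that makes deoxyribonucleotides. Rrm1 had signals of 395 and 390 in controls and 424 and 459 in transgenic arrays, a log2 difference of 0.16 ± 0.14. Rrm2 had signals of 923 and 976 in controls and 807 and 819 in transgenic arrays, a difference of −0.22 ± 0.12 (unadjusted p = 0.0818, adjusted p = 0.773 in limma). The 2 subunits thus lay on opposite sides of their controls without overlap, but the other tested probe sets of Rrm2 stood at 0.02 and 0.05 and that of Rrm1 at 0.04. Tyms, the thymidylate synthase, had signals of 35.8 and 8.22 in controls and 49.6 and 28.3 in transgenic arrays, which overlapped.

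Among the mitosis genes, both measured cyclins were above control. Ccna2, the cyclin of S phase and G2, had signals of 222 and 207 in controls and 277 and 244 in transgenic arrays, a log2 difference of 0.26 ± 0.17 (unadjusted p = 0.144). A second probe set of Ccna2 stood at 0.23. Ccnb2, a cyclin that activates the mitotic kinase, had signals of 124 and 123 in controls and 167 and 123 in transgenic arrays, so its log2 difference of 0.19 ± 0.22 rested on transgenic array 1 and was 0.00 without it.

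Mitotic kinases and their partners ranged from just below to above control. Plk1, a kinase of mitotic entry and spindle assembly, had signals of 57.4 and 65.3 in controls and 68.4 and 99.2 in transgenic arrays, a log2 difference of 0.35 ± 0.28. Tpx2, the spindle protein that activates the Aurora A kinase, had signals of 72.6 and 89.97 in controls and 98.4 and 113 in transgenic arrays, a difference of 0.32 ± 0.23, and 2 further tested probe sets gave 0.20 and 0.27. Both genes were higher on both transgenic arrays, by about 1.3 times on this scale. Aurka itself stood at 0.07, Melk at 0.02 and Nek2, a centrosomal kinase, at −0.11, all with overlapping arrays, and the second tested probe set of Nek2 stood at 0.11.

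The 2 genes on the mitosis list from the chromosomal passenger complex, which corrects faulty attachments at the centromere, differed from each other. Birc5, or survivin, had signals of 179 and 182 in controls and 260 and 226 in transgenic arrays. The control arrays were nearly equal and both transgenic arrays were higher, with a log2 difference of 0.39 ± 0.17 (SE; unadjusted p = 0.0435, adjusted p = 0.680 in limma). Aurkb, the kinase of the complex, had signals of 62.7 and 87.7 in controls and 83.9 and 43.4 in transgenic arrays, which overlapped, and stood at −0.23 ± 0.33. The second tested probe set of Aurkb stood at −0.28 ± 0.30 and was lower on both transgenic arrays. Incenp and Cdca8, also of the complex but outside that list, stood at −0.04 ± 0.13 and 0.10 ± 0.16, with overlapping arrays.

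Genes of the kinetochore and the spindle checkpoint, which holds anaphase until chromosomes are attached, had a median log2 difference of 0.38 over 6 genes, which was 0.11 without control array 2. Cenpa, the histone variant that marks centromeres, had signals of 103 and 104 in controls and 138 and 152 in transgenic arrays, a log2 difference of 0.42 ± 0.21 (unadjusted p = 0.0642, adjusted p = 0.742 in limma). Ttk, the checkpoint kinase Mps1, had signals of 47.5 and 71.5 in controls and 75.6 and 93.6 in transgenic arrays, a difference of 0.43 ± 0.27. Cenpf, a large kinetochore protein, had signals of 117 and 93.7 in controls and 148 and 127 in transgenic arrays, a difference of 0.34 ± 0.21. In all 3 genes both transgenic arrays were higher, although the second tested probe sets of Ttk and Cenpf stood at −0.05 and −0.01, and Cenpa stood at 0.01 when averaged with its dim, untested probe sets. Bub1b, the checkpoint protein BubR1, showed the highest difference of any gene on the list, 0.68 ± 0.31, with signals of 64.2 and 12.2 in controls and 65.8 and 55.4 in transgenic arrays. Its value rested on control array 2, since control array 1 lay between the transgenic arrays, and without control array 2 it was −0.07. Bub1 at 0.02, with 79.4 in both controls and 81.5 and 80.3 in transgenic arrays, and Cenpe, the kinetochore motor, at 0.00 were level with control.

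Both measured partners of the anaphase-promoting complex, the ubiquitin ligase that ends mitosis, were above control. Cdc20, its substrate receptor, had signals of 562 and 547 in controls and 682 and 606 in transgenic arrays, a log2 difference of 0.21 ± 0.13 (unadjusted p = 0.139). The second tested probe set of Cdc20 stood at 0.16, and the mean with its dim, untested probe set was 0.01. Ube2c, its ubiquitin-conjugating enzyme, had signals of 203 and 245 in controls and 269 and 255 in transgenic arrays, a difference of 0.22 ± 0.16. Neither pair of groups overlapped, but for Ube2c the control arrays differed more than the nearest arrays of the 2 groups. The same held for Plk1, Tpx2, Cenpf, Ttk and Kif11, which were also higher on both transgenic arrays.

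Genes of the spindle and of cytokinesis were divided. Kif11, the motor that pushes spindle poles apart, had signals of 72.0 and 59.9 in controls and 76.1 and 89.3 in transgenic arrays, a log2 difference of 0.27 ± 0.26, and 2 further tested probe sets gave 0.42 and 0.41. It was the only one of the 6 genes with no overlap between the groups. Kif20a stood at 0.35 ± 0.29, and at 0.07 without control array 1. Nusap1, a microtubule-bundling protein, stood at 0.27 ± 0.18, and at 0.02 with its probe sets averaged. The 3 genes of the central spindle, which positions the cleavage furrow, were near or below control, with Kif23 at −0.19, Prc1 at −0.01 and Racgap1 at 0.08. Of the 21 genes with several tested probe sets, 8 had probe sets of both signs. Among these, Cenpe stood at 0.00 and 0.18, Prc1 at −0.01 and 0.05 and Racgap1 at 0.08 and −0.19. Over all 40 tested probe sets of mitosis genes the median was 0.17, and 28 were above 0.

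**Figure D3:**
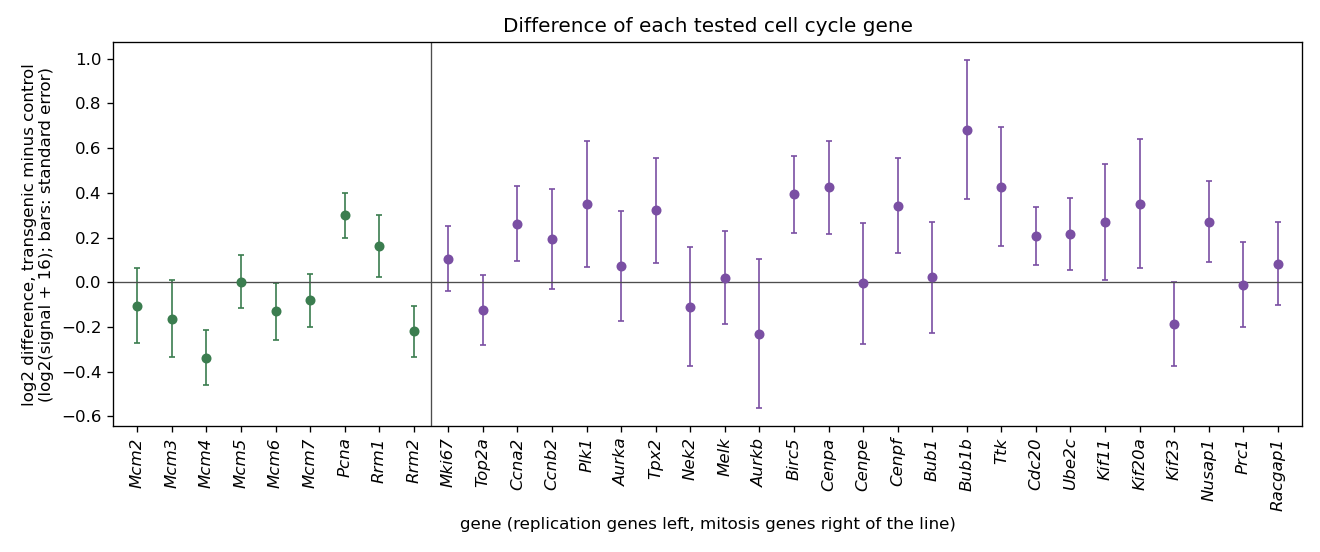
Log2 difference between transgenic and control for each of the 34 tested genes, with standard errors from the limma model. Most of the 25 mitosis genes lie above 0 and 6 of the 9 replication genes below, and no gene passed the adjusted threshold.

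The opposite medians of the 2 groups were seen on each transgenic array, but their size varied. Against the control sample, mitosis genes had a median log2 difference of 0.18 on transgenic array 1 and 0.12 on array 2. Replication genes had one of −0.02 on array 1 and −0.12 on array 2. The 2 control arrays differed from each other by a median of 0.01 for mitosis genes, with an SD over genes of 0.43, and of −0.02 for replication genes, with an SD of 0.09. With all probe sets of a gene averaged, the medians were 0.11 for mitosis and −0.07 for replication genes. The 9370 genes whose mean signal lay within the range of the mitosis genes had a median of −0.02.

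Other mitosis genes, from a list of 50 of which 47 were tested, also had a positive median, 0.10, with 32 above 0, and a median of 0.06 with probe sets averaged. In limma 0 passed the adjusted threshold and 6 had an unadjusted p under 0.05, all 6 higher, against 4.65% of all genes on the higher and 3.41% on the lower side. Espl1, the protease separase, had signals of 30.4 and 21.9 in controls and 50.8 and 62.6 in transgenic arrays, a log2 difference of 0.79 ± 0.33. It was among the 6, but its control mean of 26.1 lay under the filter signal of about 30.0. Espl1 was thus tested only because its transgenic arrays were higher. Kif20b at 0.66 ± 0.25 and Cdca3 at 0.50 ± 0.21 were likewise higher on both transgenic arrays, but stood at 0.19 and 0.11 with their probe sets averaged. In all, 19 of the 47 were higher and 3 lower on both transgenic arrays, against the 22.8% and 24.0% of all genes.

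Other replication genes were centred near 0. Of 37 listed, 35 were tested, with a median log2 difference of 0.02, and 0 passed in limma, either adjusted or at an unadjusted p under 0.05. Asf1b, a histone chaperone, stood at 0.46 ± 0.26, Gins3, a subunit of the replicative helicase, at 0.37 ± 0.31 and Pole, the leading strand polymerase, at −0.33 ± 0.33. Without transgenic array 2 Gins3 stood at 0.08 and Pole at 0.03. The lower median of the listed replication genes was thus not seen over the wider list.

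Among the regulators of the cycle, most transcription factors stood below control. Of 21 tested genes for E2F, Rb and MuvB factors, 14 were below 0 with a median of −0.13, against 51.9% of all genes, and 10 were lower on both transgenic arrays, against 24.0%. That median ran from −0.21 to −0.04 with 1 array left out and was −0.02 with probe sets averaged. In limma 0 passed the adjusted threshold and 3 had an unadjusted p under 0.05, all 3 lower, against 3.41% of all genes. Foxm1, an activator of mitosis genes, had signals of 97.8 and 74.2 in controls and 48.7 and 36.6 in transgenic arrays, a log2 difference of −0.80 ± 0.31 (adjusted p = 0.625). Both transgenic arrays of Foxm1 were thus lower while most mitosis genes were higher, but with all its probe sets averaged the difference was −0.07. E2f4, a factor that represses cell cycle genes in quiescent cells, stood at −0.67 ± 0.30 and E2f1, an activator, at 0.54 ± 0.33. The G1 and S cyclins and kinases had a median of 0.04 over 12 genes, with 0 past the adjusted threshold and 1 at an unadjusted p under 0.05 in limma. That gene was Ccnd1, or cyclin D1, with signals of 1646 and 1921 in controls and 1350 and 1584 in transgenic arrays, a difference of −0.28 ± 0.12, while Cdk2 stood at −0.27 ± 0.17 (−0.04 without transgenic array 1) and Cdc25a at 0.29 ± 0.23. Inhibitors of the cycle had a median of 0.05 over 15 genes, which was −0.10 without control array 1 and −0.05 without control array 2. In limma 0 of them passed the adjusted threshold and 3 had an unadjusted p under 0.05. Of these 3, Pkmyt1 and Ccng1 were higher and Cdkn2b lower, against 4.65% of all genes on the higher and 3.41% on the lower side. Cdkn2b, an inhibitor of the G1 kinases, had signals of 313 and 303 in controls and 223 and 225 in transgenic arrays, a difference of −0.43 ± 0.16 (adjusted p = 0.601). Gadd45a, a stress response gene, stood at 0.36 ± 0.17 and was not among the 3 (unadjusted p = 0.0637 in limma). Pkmyt1, an inhibitory kinase, stood at 0.63 ± 0.27, with signals of 110.5 and 14.2 in controls and 82.7 and 77.3 in transgenic arrays, and at −0.40 without control array 2.

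**Figure D4:**
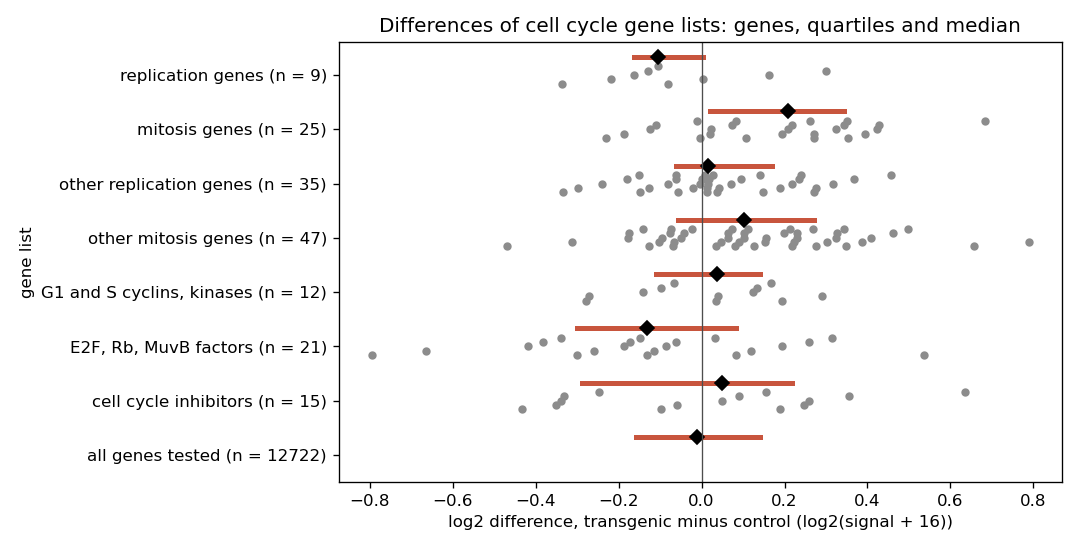
Log2 differences of the tested genes of each list (points, spread vertically for legibility), with quartiles (bars) and medians (diamonds), and the same summary for all 12722 genes tested. The mitosis lists lie to the right of all genes at 0.21 and 0.10, and the replication genes and the E2F, Rb and MuvB factors to the left at −0.10 and −0.13.

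Marker genes of other cell types, whose part in these differences was not tested, also differed between the groups. All 8 markers of the basal epithelium exceeded a mean signal of 150, and all 5 of the corneal epithelium did, while 0 of 7 rod markers did, so the arrays labelled retina carried a strong surface epithelium signal. Basal epithelium markers had a median log2 difference of −0.15 with 5 of 8 lower on both transgenic arrays, against 24.0% of all genes, and summed signals of 23710 to 23990 in controls and 21880 to 23230 in transgenic arrays. Corneal epithelium markers had a median of 0.15, with sums of 41340 to 43290 and 45640 to 48100. Leukocyte markers had a median of 0.12 over 5 tested of 8 measured, with sums of 1390 to 1486 and 1736 to 1789. Most of that difference lay in Csf1r, with a mean of 871 in controls and 1182 in transgenic arrays, while Ptprc stood at −0.13 and Lyz2 at −0.02 (log2 difference). The 2 measured erythroid markers of 5 listed were both higher on both transgenic arrays, against 22.8% of all genes, with sums of 82.0 to 122 and 157 to 226. Of these, Hba-a1 was too dim to be tested, with means of 3.67 in controls and 18.95 in transgenic arrays, so only Alas2 was tested. Rod marker sums were 235 to 236 in controls and 188 to 231 in transgenic arrays. For 6 of 6 muscle markers both transgenic arrays were higher, against 22.8% of all genes, with sums of 9622 to 9971 and 16910 to 16920, and the same held for 7 of 7 pigment cell markers, with sums of 30710 to 30750 and 35040 to 38030. Fibroblast markers were higher for 5 of 6, with sums of 20150 to 21250 and 27060 to 27240. Lens markers were higher for 5 of 6 tested, with sums over 7 measured of 168 to 193 in controls and 534 to 544 in transgenic arrays. These 5 had control means of 13.6 to 29.6, under the filter signal of about 30.0. They were tested only because their transgenic arrays were higher, so the count of 5 of 6 carries little weight. No marker was listed at 0. Poly-A control transcripts, which are spiked into the RNA, had a median log2 difference of 0.24 over 27 probe sets, close to the median of the mitosis genes, and 18 of the 27 lay above both controls in both transgenic arrays. Their part was likewise not tested.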

How the data were processed

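Total RNA was measured with 4 Affymetrix arrays, 2 per group. The deposited values are linear signal intensities, 1 per probe set and array, and the sources used here do not name the software that made them. All arrays had a trimmed mean of 150 (2% of the 45101 probe sets trimmed from each tail), and no further scaling was applied to the deposited intensities. Median signals lay between 47.1 and 50.3. Precision is limited by the number of arrays.

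Genes were named from the platform annotation where a probe set had 1 symbol (34958 probe sets), and 932 with several and 9211 with none stayed unnamed. The 64 array control probe sets were left out. Values were transformed as log2(signal + 16), and the 27022 probe sets with a mean above the 40th percentile, a signal of about 30.0, were tested. The control arrays were averaged, and limma 3.58.1 in R 4.3.3 was fitted across all of these with trended empirical Bayes moderation, two-sided tests and Benjamini-Hochberg adjustment (threshold 0.05). The fit had 1 residual and 10.3 prior degrees of freedom, and the spread of the single control sample was taken to equal that of the transgenic samples. The steps were checked on data with known differences.

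The brightest probe set, by mean log2 value, stood for each gene. The genes, lists and tests were chosen with earlier results of these data known. Named genes are all members, and in each other cell cycle list those past the threshold or else the 3 with the largest absolute difference. Ccng1 was added for its unadjusted p. Motif shares are descriptions. Alternatives were other scalings, pseudocounts, filters and moderation, arrays as separate samples, leaving out each array, and the mean over a gene's probe sets.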

Additional observations from a re-analysis of the deposited data

How the results depend on the processing

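Of 15 alternatives, 11 do more than change the variance model, and the medians of replication and mitosis genes kept their signs in those 11. Averaging the probe sets of a gene gave 0.11 for mitosis genes, 0.031 for all members and −0.175 for replication minus mitosis, with 6 mitosis genes higher on both transgenic arrays, where quantile normalization gave 16. Leaving out 1 array gave 0.12 to 0.19 for mitosis genes, −0.116 to −0.018 for replication genes (−0.018 without transgenic array 2), 0.052 to 0.143 for all members and −0.29 to −0.20 for their difference, where a pseudocount of 64 gave −0.26. Leaving out a transgenic array left no test. With 4 arrays as samples and the replicate number as a block, 2 members passed in limma, Pcna (adjusted p = 0.00122) and Mcm4 (0.00891), and 1740 probe sets in place of 21. The number is not stated to pair the arrays, and deviations of same-numbered arrays correlated at 0.10 across probe sets. Ccnd1 (0.00571), Cdkn2b (0.0235) and Foxm1 (0.0358) passed with the block too. In every other alternative with a test, 0 members passed, and 15 of the 35 changed sign in some alternative. The count of all probe sets past the threshold was 39 after quantile normalization, 56 after median centring, 135 with 4 arrays as samples without the block, 71 over genes with averaged probe sets, 0 without the filter or the trend, and 34 to 42 without a control array. The cause of these shifts was not tested. Dim signals limit the mitosis genes, of which 10 of 25 had a mean signal over 150.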
